A study of Mus musculus with 12 samples.

Results

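Apol6, Apol9a, Apol9b, Mpeg1 and Batf2 were followed in all 12 RNA-seq libraries of IEC4.1 cells, as 5 of the 15002 genes listed. They were picked by name from IFN-γ results of these same libraries, because Mpeg1, Batf2 and Apol6 were among the genes with the steepest rise under IFN-γ. Their rise with IFN-γ is therefore given as a description and was not tested, whereas the siRNA comparisons were tested. The interaction was tested as well, but it compares those same rises. All 5 passed the filter on low counts, together with 11900 genes in all. Mpeg1, Batf2 and Apol6 could pass only through the libraries with IFN-γ.

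IEC4.1 is a mouse intestinal epithelial cell line that the methods derive from a newborn animal. The study asked how the long noncoding RNA Nostrill, spelled Nostril in the labels, bears on the response to the cytokine interferon-γ (IFN-γ). Each of the 4 groups holds 3 libraries. The siR_Ctrl group received a scrambled siRNA and is labelled WT, and siR_Ctrl + IFN-γ received the same siRNA and then the cytokine. The siR_Nostrill group received a pool of 3 siRNAs against Nostrill, and siR_Nostrill + IFN-γ received that pool and the cytokine. All 4 groups were thus transfected, and no library comes from untransfected cells. The labels give 24 h for each library. In the methods, IFN-γ followed after 24 h of transfection, and a figure legend describes its addition as 4 h at 1 ng/ml. The level of Nostrill was not analysed here, and the depletion by the siRNA pool was therefore not checked. The methods call the libraries biological triplicates of 1 cell line, and p-values measure the spread between these libraries.

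IFN-γ binds a cell surface receptor whose kinases JAK1 and JAK2 activate transcription factors in the cell. These act on GAS and ISRE elements in the DNA of interferon-stimulated genes. The apolipoprotein L (APOL) genes encode a family of proteins with membrane-active domains, several of which are interferon-inducible. Mpeg1 encodes perforin-2, a pore-forming protein of the MACPF family that acts in phagosomes and endolysosomes against bacteria and is best known from macrophages. Batf2 encodes a basic leucine zipper protein that pairs with JUN proteins and cooperates with IRF1 in macrophages.

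In RefSeq coordinates of GRCm38.p6 the 3 APOL genes lie on chromosome 15. Apol6 (gene ID 71939) spans chr15:77045050-77057108 and overlaps Mb, which was not analysed here. Apol9a (223672) spans chr15:77403789-77411080 and Apol9b (71898) spans chr15:77729047-77736382, 318 kb apart. Batf2 (74481) spans chr19:6164397-6172476 and Mpeg1 (17476) spans chr19:12460770-12465285. No other gene of the annotation overlaps these last 4. The sources used here do not say whether reads were counted by strand, so reads of Apol6 and Mb may not be told apart where they overlap.

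Promoter sequence is shown for the Apol9 pair, whose upstream DNA is compared below, and for Mpeg1. The 250 bases before a start site are given 5′ to 3′ on the gene's own strand, from RefSeq and GRCm38.p6, and capitals mark ISRE-like matches. Apol9a is on the minus strand at chr15:77411081-77411330, Apol9b on the plus strand at chr15:77728822-77729071, and Mpeg1 on the plus strand at chr19:12460520-12460769.
Apol9a: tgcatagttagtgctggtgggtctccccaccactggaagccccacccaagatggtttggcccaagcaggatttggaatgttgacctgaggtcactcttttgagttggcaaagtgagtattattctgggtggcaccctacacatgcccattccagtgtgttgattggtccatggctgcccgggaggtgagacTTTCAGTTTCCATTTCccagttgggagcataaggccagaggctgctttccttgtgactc
Apol9b: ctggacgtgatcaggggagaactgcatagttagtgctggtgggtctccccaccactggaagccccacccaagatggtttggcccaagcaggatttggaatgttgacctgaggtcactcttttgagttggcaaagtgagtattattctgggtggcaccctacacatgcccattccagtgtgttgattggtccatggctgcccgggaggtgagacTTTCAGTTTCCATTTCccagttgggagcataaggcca
Mpeg1: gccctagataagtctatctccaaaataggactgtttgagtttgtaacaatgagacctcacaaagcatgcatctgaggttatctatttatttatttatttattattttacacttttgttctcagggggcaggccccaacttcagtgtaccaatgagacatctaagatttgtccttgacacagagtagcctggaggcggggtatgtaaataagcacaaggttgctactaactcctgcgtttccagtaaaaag

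The 228 bases that these Apol9a and Apol9b windows have in common had 0 mismatches. Both carried 2 overlapping ISRE-like matches (GAAANNGAAA, read here on the other strand as TTTCNNTTTC). They ran from position -59 to -44 before the Apol9a start and from -37 to -22 before the Apol9b start. The Apol9b start used for this window is chr15:77729072, downstream of the gene's first base at 77729047. The end of the Apol9b window, with the end of its matches, thus lies within the gene span given above. Of 32851 promoter windows of the same length, 2.98% held this motif on either strand. The GAS motif TTCNNNGAA, present in 7.02% of windows, was found in neither Apol9 window. The Mpeg1 window held neither motif, nor the AP-1 motif TGANTCA, which 6.75% of windows held. The second annotated start of each Apol9 gene lies further downstream, and its window held the same 2 ISRE-like matches and 1 AP-1 match. A match of letters describes the sequence and says nothing of binding. Apol6 and Batf2 are named here without sequence.

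Between 17824306 and 19093204 reads were counted per library, with a median of 18153496. Totals of deposited FPKM ranged from 570935 to 794809 between libraries, the lowest in siR_Ctrl replicate 1 and the highest in siR_Ctrl + IFN-γ replicate 2, the libraries in which the balance of reads between short and long transcripts (the length trend) was furthest from the average.

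Mpeg1 was switched from almost no reads to a low level. Its estimated read counts were 0, 0 and 1 in siR_Ctrl and 182, 160 and 185 in siR_Ctrl + IFN-γ. They were 0, 0 and 1 in siR_Nostrill and 170, 170 and 133 in siR_Nostrill + IFN-γ. No library with IFN-γ came near those without. In TPM, a level scaled for transcript length and to a common total per library, Mpeg1 reached 3.29 ± 0.638 (SD, n = 3) in siR_Ctrl + IFN-γ and 3.21 ± 0.557 (SD, n = 3) in siR_Nostrill + IFN-γ. In siR_Ctrl + IFN-γ, 36.4% of the listed genes had a lower mean TPM than Mpeg1. Summed over each group and scaled to total reads, reads were 507 times as many with IFN-γ in siR_Ctrl cells, with an exact 95% counting interval of 90.5 to 20045. The ratio was 475 (84.8 to 18796) in siR_Nostrill cells. These intervals cover counting error only, and each rests on the single read in the group without IFN-γ. Leaving out siR_Ctrl replicate 1 or 2, which had no read, lowered the first ratio to 338 and 336, and leaving out siR_Nostrill replicate 1 or 2 gave 319 and 318 for the second.

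Apol6 went from a few reads to a level well above that of Mpeg1. Its counts were 2, 3 and 8 in siR_Ctrl and 4, 2 and 7 in siR_Nostrill. With IFN-γ they were 1276, 1348 and 1230 in siR_Ctrl cells and 1419, 1443 and 1308 in siR_Nostrill cells. In TPM, Apol6 went from 0.193 ± 0.129 to 47.9 ± 4.53 in siR_Ctrl cells and from 0.19 ± 0.151 to 56.9 ± 5.40 in siR_Nostrill cells (SD, n = 3 each). The ratio of reads with to without IFN-γ was 285 (166 to 536) in siR_Ctrl cells and 322 (188 to 605) in siR_Nostrill cells. Without siR_Ctrl replicate 3, which held 8 of the 13 basal reads, the first ratio was 496. Apol6 thereby passed from a level above 18.6% of listed genes in siR_Ctrl to one above 80.4% in siR_Ctrl + IFN-γ.

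Batf2 had counts of 2, 0 and 2 in siR_Ctrl and 4, 3 and 1 in siR_Nostrill. With IFN-γ they were 593, 658 and 498 in siR_Ctrl cells and 712, 711 and 718 in siR_Nostrill cells. The 3 siR_Nostrill + IFN-γ libraries were close to each other and all above the 3 siR_Ctrl + IFN-γ libraries. Mean TPM rose from 0.0867 ± 0.0850 to 35.1 ± 1.96 in siR_Ctrl cells and from 0.17 ± 0.0917 to 47.4 ± 1.34 in siR_Nostrill cells (SD, n = 3 each). The ratio of reads was 420 (164 to 1544) in siR_Ctrl cells and 269 (136 to 623) in siR_Nostrill cells. Like those of Apol6, these intervals cover counting error only. For Batf2 they rest on 4 and 8 basal reads, and nothing is read from their overlap. The first ratio was 279 without siR_Ctrl replicate 2.

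**Figure D1:**
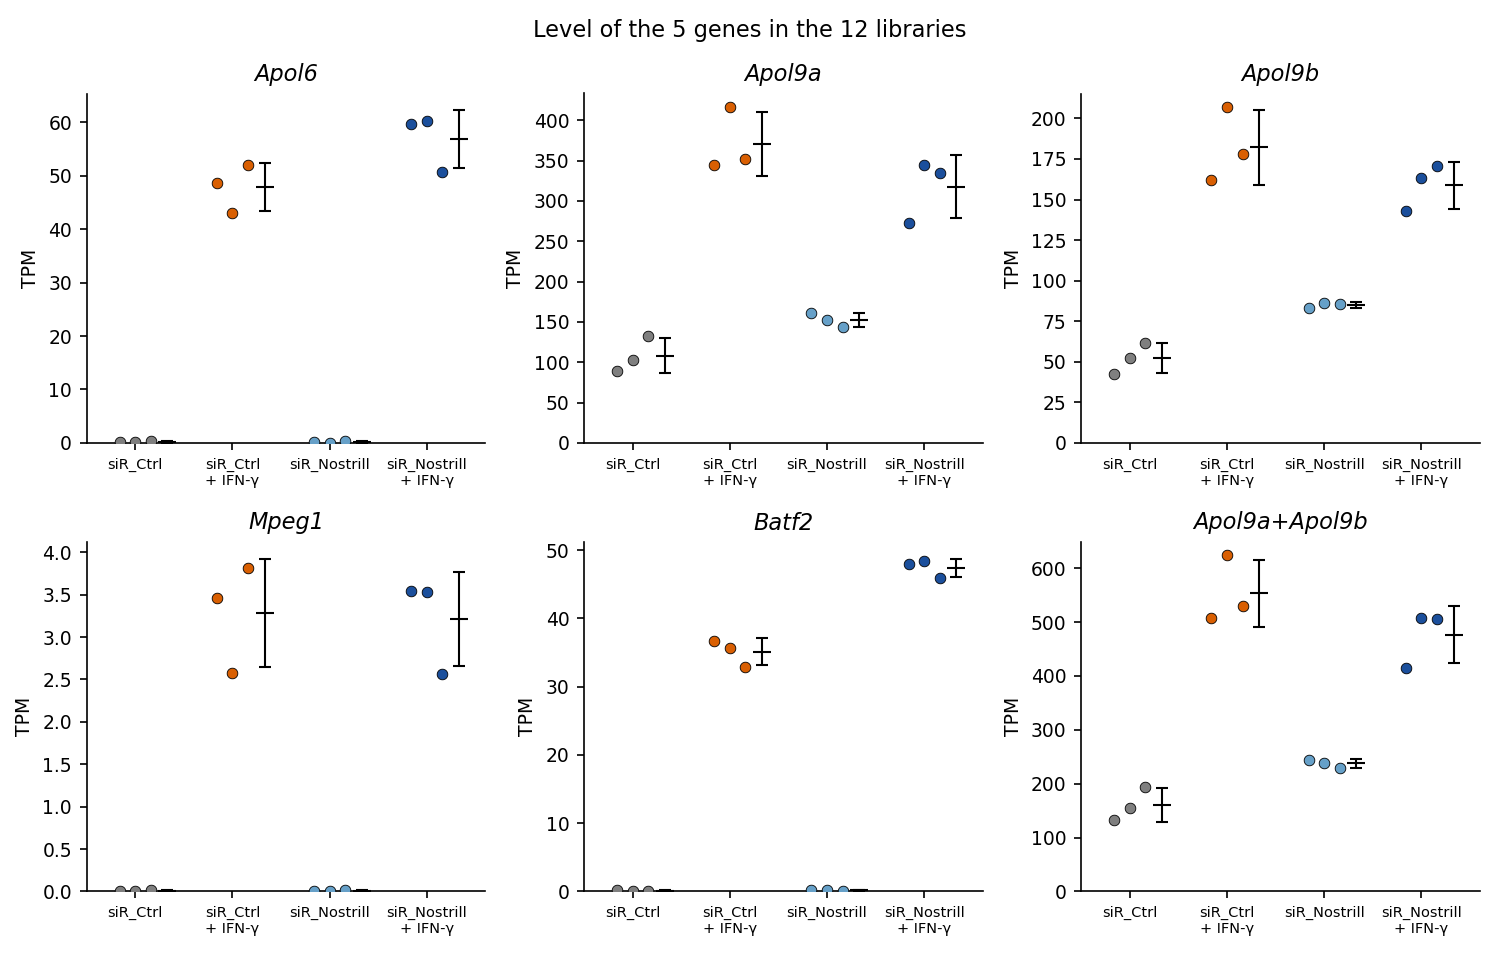
TPM of each gene, and of Apol9a and Apol9b added together, in the 12 libraries (y axis, linear from 0) by group (x axis), each point a library in replicate order 1 to 3 and the cross bar with whiskers the mean ± SD. Apol6, Mpeg1 and Batf2 sit near 0 in the 6 libraries without IFN-γ, while Apol9a and Apol9b start at 42.8 TPM or more.

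The Apol9 pair was already abundant without the cytokine. Apol9a read 89.7, 103 and 132 TPM in siR_Ctrl and 345, 417 and 352 TPM in siR_Ctrl + IFN-γ. It read 161, 153 and 143 TPM in siR_Nostrill and 273, 345 and 335 TPM in siR_Nostrill + IFN-γ. The highest siR_Ctrl library lay below the lowest siR_Nostrill library, and all 6 libraries with IFN-γ lay above all 6 without. The ratio of group means with to without IFN-γ was 3.43 in siR_Ctrl cells and 2.08 in siR_Nostrill cells. In siR_Ctrl + IFN-γ, Apol9a stood at place 389 of 15002 genes by mean TPM.

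Apol9b followed the same order at a lower level. It read 42.8, 52.6 and 61.7 TPM in siR_Ctrl and 162, 207 and 178 TPM in siR_Ctrl + IFN-γ. It read 83.3, 86.3 and 85.5 TPM in siR_Nostrill and 143, 163 and 171 TPM in siR_Nostrill + IFN-γ. The ratio of means was 3.48 in siR_Ctrl cells and 1.87 in siR_Nostrill cells. The siR_Nostrill libraries without IFN-γ differed little, with a mean of 85.0 ± 1.56 TPM (SD, n = 3), and lay above all siR_Ctrl libraries.

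How reads were divided between Apol9a and Apol9b is uncertain. The longest protein-coding GENCODE vM21 transcripts of the pair (1530 and 1573 nt) were 98.4% identical over 1422 aligned bases. Of the 100-base windows of the Apol9a transcript, 41.1% occurred without a mismatch in an Apol9b transcript. Apol9a received between 61.3% and 66.7% of the reads of the pair in each of the 12 libraries. The summed reads of both copies do not depend on that division. They were 1797, 2743 and 3145 in siR_Ctrl, 8543, 12352 and 8265 in siR_Ctrl + IFN-γ, 4348, 4350 and 3759 in siR_Nostrill, and 6483, 7915 and 8469 in siR_Nostrill + IFN-γ. Every siR_Nostrill library without IFN-γ lay above every siR_Ctrl library in this sum. The summed TPM depends on the division slightly, since the copies differ in length (1276 and 1373 nt). It was 132, 155 and 194 TPM in siR_Ctrl, 507, 624 and 530 TPM in siR_Ctrl + IFN-γ, 245, 239 and 229 TPM in siR_Nostrill, and 415, 508 and 506 TPM in siR_Nostrill + IFN-γ.

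Ranked by fitted log2 fold change with IFN-γ among 11900 genes, Batf2, Mpeg1 and Apol6 took places 6, 7 and 9 in siR_Ctrl cells and places 9, 7 and 8 in siR_Nostrill cells. For genes near 0 this fold depends on the small count added before taking logs. Apol9a and Apol9b took places 158 and 157 in siR_Ctrl cells, and 425 and 513 in siR_Nostrill cells. All 5 genes were higher in TPM in every library with IFN-γ than in every library without. That held for 5.23% of genes tested in siR_Ctrl cells and for 20.3% in siR_Nostrill cells, and nothing is read from the count because IFN-γ chose the genes. Counts of a bulk culture cannot tell fewer expressing cells from less RNA per cell.

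Without IFN-γ, the level of Apol9a and Apol9b was higher in each siR_Nostrill library than in each siR_Ctrl library, but neither gene passed the test over all genes. The quasi-likelihood test of edgeR was fitted on all 4 groups, with p-values adjusted over 11900 genes by the method of Benjamini and Hochberg. It called 26 genes, 0.218% of those tested, and neither Apol9a nor Apol9b. The other 3 genes had 13 reads or fewer per group here and are left out of this count. At an unadjusted p below 0.05 it gave both copies, against 13.8% of all genes. Apol9a had a log2 fold change of 0.66 ± 0.25 (SE, adjusted p = 0.309), and Apol9b had 0.83 ± 0.23 (SE, adjusted p = 0.191). With the pair summed, the log2 fold change was 0.72 (adjusted p = 0.274). Both copies were higher in TPM in 3 of 3 siR_Nostrill libraries than in any siR_Ctrl library, as were 4.58% of all genes tested. These libraries also entered the IFN-γ contrasts that chose the genes.

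Apol6 had 13 reads in total in siR_Ctrl and 13 in siR_Nostrill, and the counting interval of the ratio ran from 0.427 to 2.34. Batf2 had 4 and 8 reads, with an interval of the ratio from 0.536 to 9.08. Mpeg1 had 1 read in each group, under the floor of 3 counts over a group, and no fold is given. These intervals cover counting error only and leave out the spread between libraries. At this depth, basal changes of Apol6 and Batf2 within them could not be told from counting error.

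Libraries also differed in how reads were spread over short and long transcripts. In siR_Ctrl replicate 1 short transcripts had fewer reads relative to long ones than in the average library, by 0.32 on the log2 scale at the length of Apol9a (1276 nt, as implied by counts and FPKM). In siR_Nostrill replicates 1 and 2 the same measure was 0.19 above the average. At the length of Mpeg1 (4084 nt), siR_Ctrl replicate 1 was 0.25 above the average. With this length trend removed from each library, Apol9b had a log2 fold change of 0.69 (adjusted p = 0.00784) and Apol9a 0.49 (adjusted p = 0.0605), in a setting that called 408 of 11900 genes in place of 26. Without siR_Ctrl replicate 1, the log2 fold changes were 0.62 for Apol9b (adjusted p = 0.483) and 0.44 for Apol9a (adjusted p = 0.810). Over all alternatives run, the adjusted p of Apol9b ranged from 0.00784 to 0.574.

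**Figure D2:**
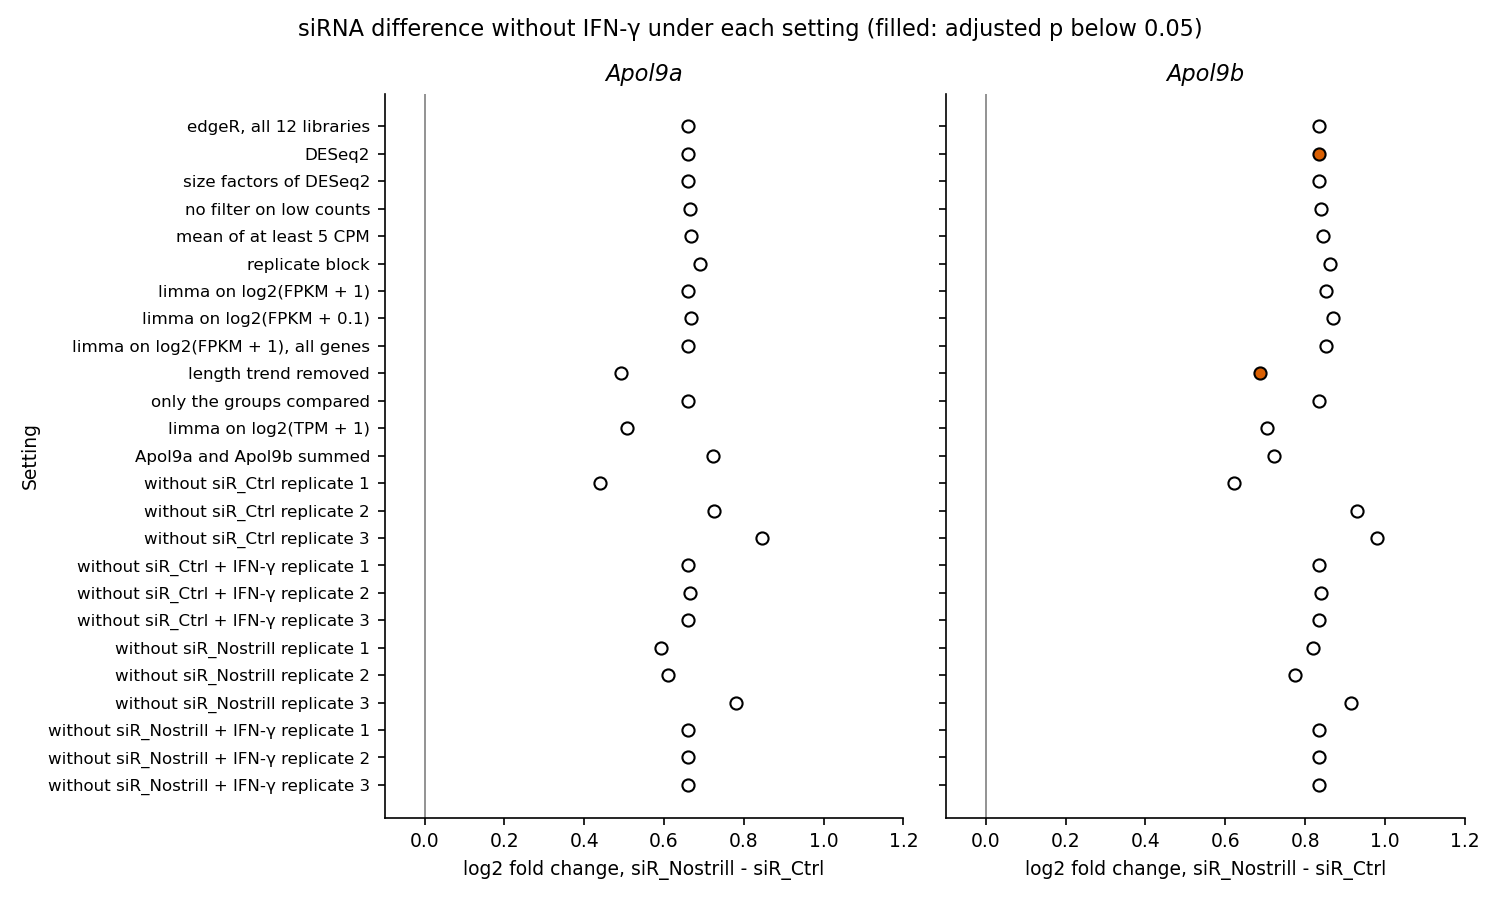
Log2 fold change of Apol9a and Apol9b between siR_Nostrill and siR_Ctrl without IFN-γ (x axis) under each analysis setting (y axis), with a filled point where the adjusted p is below 0.05. Every point lies above 0, and 2 points are filled, both for Apol9b, with DESeq2 and with the length trend removed. The setting with both copies summed has the same value in each panel.

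In the presence of IFN-γ no member passed the test between the siRNAs. edgeR called 51 genes, 0.429% of those tested, and 0 of the 5. At an unadjusted p below 0.05 it gave 0 of the 5, against 14.5% of all genes. Batf2 was the nearest, with a log2 fold change of 0.28 ± 0.17 (SE, adjusted p = 0.486) and a mean TPM 1.35 times that in siR_Ctrl + IFN-γ. Batf2 was higher in TPM in 3 of 3 siR_Nostrill + IFN-γ libraries than in any siR_Ctrl + IFN-γ library, as were 14.1% of all genes. With the length trend removed, Batf2 passed at 0.38 (adjusted p = 0.0240), in a setting that called 1537 of 11900 genes in place of 51. The adjusted p of Batf2 was between 0.0240 and 0.730 over all alternatives.

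Apol6 was 1.19 times as high in mean TPM in siR_Nostrill + IFN-γ, with overlapping libraries and a log2 fold change of 0.11 ± 0.16 (SE, adjusted p = 0.804). Mpeg1 had a log2 fold change of -0.16 ± 0.17 (SE, adjusted p = 0.728), and its TPM values overlapped. Apol9a and Apol9b, which had been higher under siR_Nostrill without IFN-γ, had log2 fold changes of -0.38 ± 0.25 (SE, adjusted p = 0.515) and -0.33 ± 0.22 (SE, adjusted p = 0.544). Without siR_Ctrl + IFN-γ replicate 2, which held the highest level of both copies, the values were -0.13 and -0.07.

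The siRNA difference with IFN-γ was then compared with that without it, as an interaction term. The same term is the log2 rise with IFN-γ in siR_Nostrill cells minus that in siR_Ctrl cells. It therefore draws on the IFN-γ values that chose the genes and is not independent of that choice. edgeR called 0 genes (0%), and DESeq2 and limma also called 0. At an unadjusted p below 0.05 there were 1277 genes (10.7%). The 2 members among those 1277 were Apol9a, at -1.04 ± 0.35 (SE, adjusted p = 0.430), and Apol9b, at -1.16 ± 0.32 (SE, adjusted p = 0.430). A negative value means that the log2 rise with IFN-γ was smaller in siR_Nostrill cells. The fitted rises were 1.94 ± 0.25 and 0.90 ± 0.25 for Apol9a, and 1.95 ± 0.23 and 0.79 ± 0.23 for Apol9b, in siR_Ctrl and siR_Nostrill cells. The interaction stayed negative for both copies under each alternative run and passed under none. It ran from -1.23 to -0.73 for Apol9a and from -1.31 to -0.90 for Apol9b. Every such fit shares the values that chose the genes, so nothing is read from the steady sign. The interaction of Apol6 (0.09 ± 0.56, SE) and Batf2 (-0.68 ± 0.77, SE) rests on 13 basal reads per group and on 4 and 8, and nothing is read from it. Mpeg1 is not given one because of its 1 read per basal group.

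**Figure D3:**
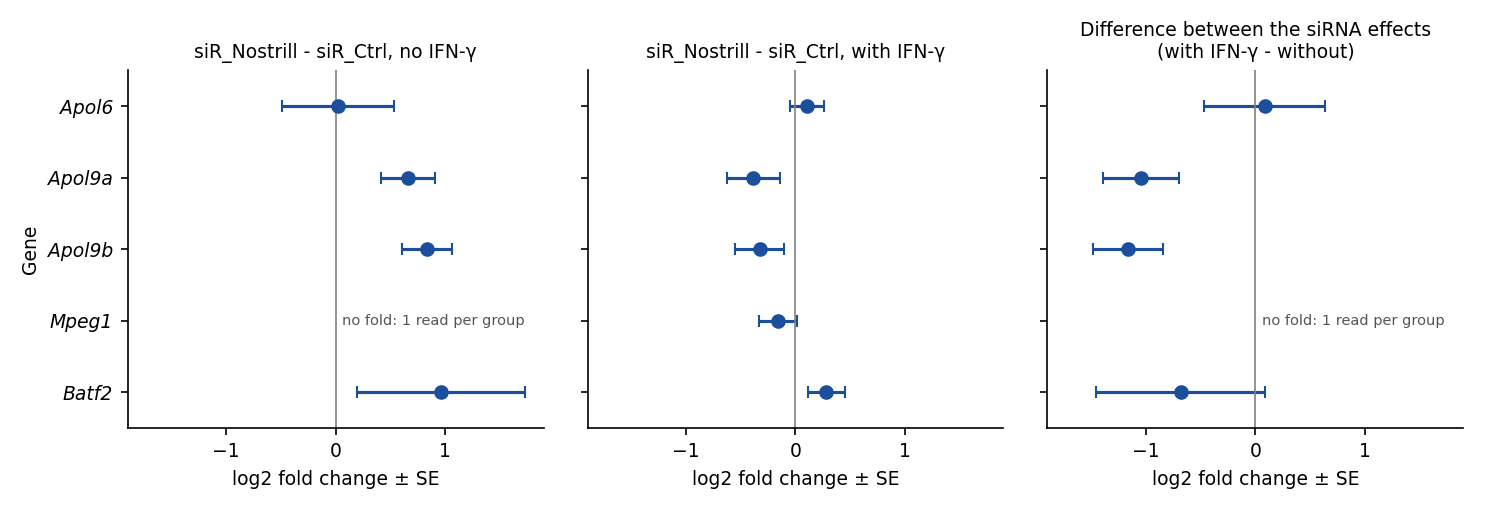
Log2 fold change ± SE (x axis) of each gene (y axis) between siR_Nostrill and siR_Ctrl without IFN-γ, with IFN-γ, and for the difference between these effects, from the edgeR fit over 12 libraries. Apol9a and Apol9b lie right of 0 in the first panel and left of 0 in the other 2, and none of the points has an adjusted p below 0.05. Points of Apol6 and Batf2 without IFN-γ and for the difference rest on 13 basal reads or fewer per group, and nothing is read from them.

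The other APOL genes were described from a list of 11 genes (10 APOL genes, plus Apold1), of which 9 were listed in the tables and 7 tested. In siR_Ctrl cells 6 of these 7 rose with IFN-γ, where 4.71% of all genes tested rose. None of the 7 fell, where 89 of 11900 genes did, and nothing is read from that absence. In siR_Nostrill cells the same 6 genes rose, where 5.24% of all genes did. The call of Apol10a, 1 of the 6, was lost in siR_Ctrl cells with only the groups compared (adjusted p = 0.0572) and in siR_Nostrill cells without siR_Nostrill replicate 2 or 3 (0.0599 and 0.0558). No alternatives are given here for Apol7a and Apol8. Apol8 was near the threshold in siR_Nostrill cells (edgeR, adjusted p = 0.0412). The median log2 fold change of the 7 was 2.14 and 2.01, against -0.01 and -0.00056 over all genes. Apol11b rose by 3.50 ± 0.55 (SE, adjusted p = 0.00183) in siR_Ctrl cells, from TPM values of 0.05, 0 and 0.22. The size of that rise rests on few reads, and it was 5.27 without siR_Ctrl replicate 3, 2.97 without siR_Ctrl replicate 2 and 0.67 with limma on log2(FPKM + 1) of all genes. Apol11a rose by 2.77 ± 0.30 and Apol10b by 2.54 ± 0.10 in the same cells. The gene that was not called was Apold1, at -0.04 ± 0.28 (SE, adjusted p = 0.969).

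Between the siRNAs, 1 of the 7 was called with IFN-γ, Apol10b, against 0.429% of all genes, and 0 of the 7 without IFN-γ, against 0.218%. It read 48.2, 40.2 and 48.5 TPM in siR_Ctrl + IFN-γ and 29.3, 30.1 and 26.8 TPM in siR_Nostrill + IFN-γ, with no overlap. The share of all genes with every siR_Nostrill + IFN-γ library lower was not counted, so nothing is read from the missing overlap. Its log2 fold change was -0.80 ± 0.095 (SE, adjusted p = 0.0135). The call was lost on leaving out siR_Ctrl + IFN-γ replicate 1 or any of the 3 siR_Nostrill + IFN-γ libraries (adjusted p from 0.0702 to 0.122), with limma on TPM (0.0750) and with only both groups fitted (0.126). Without IFN-γ the log2 fold change of Apol10b was -0.38 ± 0.10 (SE, adjusted p = 0.195). Apol7b and Apol7e, with at most 4 and 3 reads in a library, were not tested. The APOL genes share sequence, and some Apol10b counts are fractions of reads, so the division between copies is uncertain here as well.

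**Figure D4:**
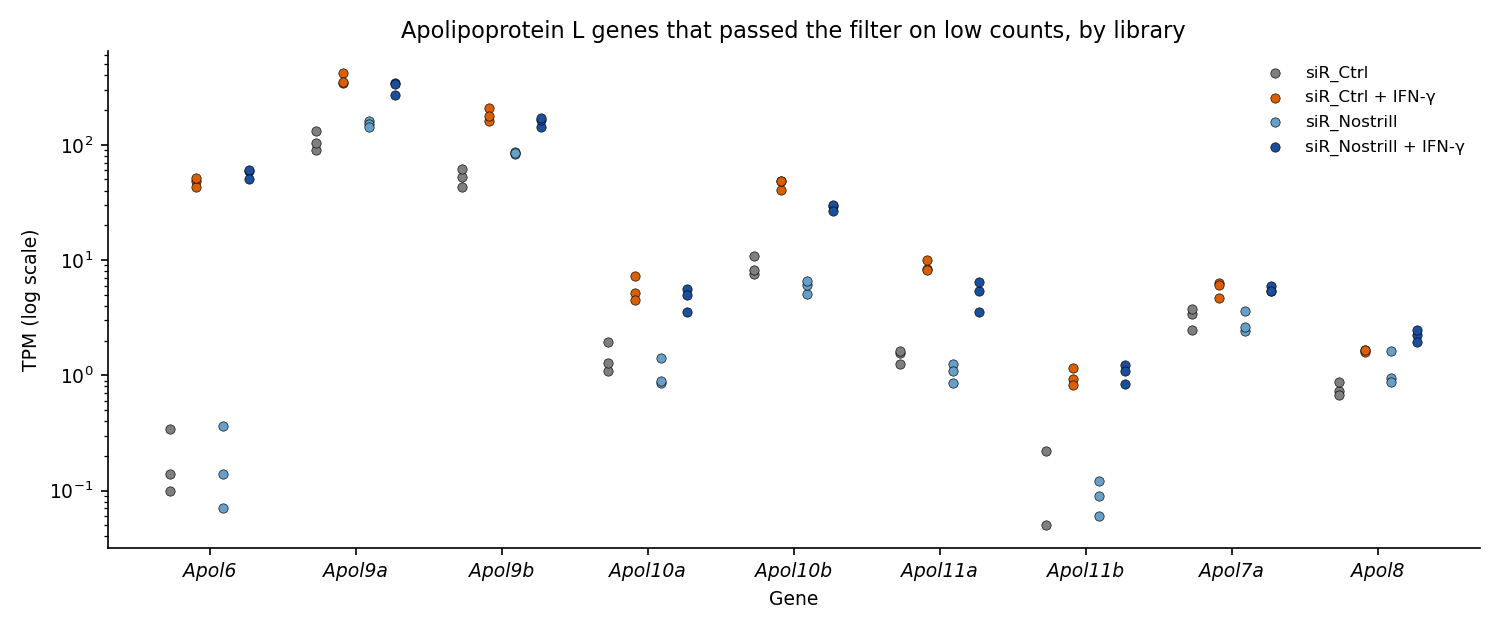
TPM on a log scale (y axis) of the 9 APOL genes that passed the filter on low counts (x axis), each point a library, coloured by group. Within each siRNA the libraries with IFN-γ lie above those without for each gene, and the siR_Nostrill + IFN-γ libraries of Apol10b lie below its siR_Ctrl + IFN-γ libraries. The 1 library with 0 TPM for Apol11b has no point.

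Other genes of the MACPF family were mostly at low levels in this line. Of 11 other MACPF genes, 5 were listed and 1 tested, Brinp3, at a mean of 1.64 TPM in siR_Ctrl and 1.31 TPM in siR_Ctrl + IFN-γ, which was called in none of the comparisons. Of 12 endolysosome genes, the compartment in which perforin-2 works, 10 were tested. With IFN-γ in siR_Ctrl cells 0 of the 10 rose, where 4.71% of all genes did, and 0 fell, where 89 of 11900 did. With 10 genes nothing is read from these counts, and the median log2 fold change was 0.08. In siR_Nostrill cells 1 of the 10 rose, where 5.24% of all genes did, and the median was -0.06. It was Lamp2, a lysosomal membrane protein, at 0.65 ± 0.12 (SE, adjusted p = 0.00546), a call lost with limma on TPM (0.0636). Between the siRNAs none of the 10 was called, against 0.218% of all genes without IFN-γ and 0.429% with it, and nothing is read from that count.

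Among 8 tested relatives and partners of BATF2, 4 rose with IFN-γ in siR_Ctrl cells and 2 in siR_Nostrill cells, and none fell. Over all 11900 genes tested 4.71% and 5.24% rose, and 89 and 184 genes fell, so nothing is read from the absence of falls. The median log2 fold change of the 8 was 0.52 and 0.31, against -0.01 and -0.00056 over all genes. Irf1, which encodes the interferon-induced factor that cooperates with BATF2, rose by 3.57 ± 0.10 and 3.23 ± 0.10 (SE, adjusted p = 8.5e-10 and 2.02e-09). Batf3, another family member, rose by 1.91 ± 0.34 in siR_Ctrl cells (SE, adjusted p = 0.00484), a call lost with only the groups compared (0.0865). In siR_Nostrill cells Batf3 had 1.22 ± 0.34 (SE, adjusted p = 0.0564). Jun and Junb, encoding AP-1 proteins, rose in siR_Ctrl cells by 0.57 ± 0.08 and 0.62 ± 0.10. Both calls were lost with limma on TPM (adjusted p = 0.392 and 0.0550), and that of Junb also with only the groups compared (0.0525). In siR_Nostrill cells the second gene called, beside Irf1, was Fosl2, at 0.80 ± 0.16 (SE, adjusted p = 0.0122). That call was lost without siR_Nostrill replicate 1 or 2 or siR_Nostrill + IFN-γ replicate 1 (adjusted p from 0.0547 to 0.0634) and with limma on TPM (0.0908). None of the 8 was called between the siRNAs, where 0.218% of all genes were called without IFN-γ and 0.429% with it, so this count says little.

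Among genes of interferon signaling, Usp18, which encodes a brake on it, rose with IFN-γ by 3.81 ± 0.20 in siR_Ctrl cells and 3.07 ± 0.18 in siR_Nostrill cells (SE, adjusted p = 1.45e-07 and 4.24e-07). Stat2, which encodes a transcription factor of the interferon response, rose by 3.18 ± 0.11 and 2.91 ± 0.10 (SE, adjusted p = 3.11e-09 and 6.19e-09).

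Between the siRNAs without IFN-γ, Irf9 was called. This gene, which encodes a DNA-binding protein of the interferon response, read 11.3, 7.60 and 9.29 TPM in siR_Ctrl and 13.2, 10.1 and 14.2 TPM in siR_Nostrill. The libraries overlapped in TPM, and the log2 fold change was 0.58 ± 0.09 (SE, adjusted p = 0.0357). The call was lost in 10 of 12 fits that left out a library and in 6 of 12 other alternatives, with 0.37 (adjusted p = 0.488) on TPM. With IFN-γ, Ifngr2 was called at 0.54 ± 0.09 (SE, adjusted p = 0.0375), a call lost in 9 of 12 fits that left out a library and in 3 of 12 other alternatives.

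By Pearson correlation of log2 CPM (reads scaled to library size) over the 12 libraries, among 10692 genes, each member was set beside the genes that are no members. Of these, the genes most like Apol6 were Gbp2b (r = 0.999), Cxcl9 (0.998) and Gbp4 (0.998). Gbp4 (0.999) and Gbp2b (0.999) were the first 2 for Mpeg1, and the next gene is not reported here. Those most like Batf2 were Parp11 (0.997), Ifi47 (0.997) and Gbp2 (0.996). Apol9a was most like H2-T23 (0.991), Bst2 (0.986) and Ifi35 (0.985), and Apol9b most like H2-T23 (0.994), Bst2 (0.991) and H2-K1 (0.990). These values describe 12 libraries that share the IFN-γ step and each library's depth and length trend. Among the members, Apol9a correlated with Apol9b at 0.993, above its value for H2-T23, and with Apol6 at 0.880 and Mpeg1 at 0.872. Apol6 correlated with Mpeg1 at 0.998.

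The first 2 genes that resemble the Apol9 pair were also higher in each siR_Nostrill library than in each siR_Ctrl library without IFN-γ, as were 4.58% of all genes. H2-T23, a nonclassical MHC class I gene, read 50.5, 58.3 and 64.2 TPM in siR_Ctrl and 80.1, 84.3 and 83.0 TPM in siR_Nostrill, with a log2 fold change of 0.68 ± 0.21 (SE, adjusted p = 0.230). Bst2, encoding the antiviral protein tetherin, read 76.1, 90.5 and 100.1 TPM in siR_Ctrl and 133, 141 and 132 TPM in siR_Nostrill, with 0.78 ± 0.26 (SE, adjusted p = 0.281). Neither passed, whereas both passed with the length trend removed, at 0.48 and 0.46 (adjusted p = 0.00784 for each), as did 408 genes in all. Both had been chosen for their likeness to Apol9a and Apol9b in these libraries.

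Because Mpeg1 is a macrophage gene, markers of other cells were read beside it. Of 16 macrophage and myeloid markers 10 were listed, and their summed TPM lay between 3.06 and 5.39 in the 6 siR_Ctrl libraries and between 3.49 and 4.96 in the 6 siR_Nostrill libraries, with and without IFN-γ. Cd68, a lysosomal glycoprotein gene, was the most abundant by mean TPM and had 17 to 38 reads (1.27 to 3.20 TPM) in each library. Csf1r had 7 to 34 reads and Aif1 between 1 and 15 reads. Ptprc, the pan-leukocyte gene, and C1qb had at most 1 read in any library, and Lyz2 at most 3. The range was 3.12 to 5.39 in siR_Ctrl and 3.06 to 4.75 in siR_Ctrl + IFN-γ. Markers of T, NK and B cells summed to at most 0.52 TPM and those of endothelial cells to at most 0.29 TPM.

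The markers did not match the epithelial label of the line. Of 12 intestinal epithelial markers 7 were listed, and their sum was between 1.96 and 4.18 TPM, mostly Krt19. Vil1 had at most 4 reads and Cdx2 at most 1 in a library. All 8 fibroblast and stromal markers were listed, with a sum between 2619 and 4016 TPM. Led by Vim (mean 2453 TPM) and Col1a1 (397.3 TPM) in siR_Ctrl, this sum does not describe each marker. Lum, of the same list, had group means of 0.267 to 0.313 TPM. It had at most 9 reads in a library and did not pass the filter. None of the 12 tested markers, which were 1 epithelial, 4 myeloid and 7 stromal genes, was called in any comparison. Over all 11900 genes tested, 4.71% and 5.24% rose with IFN-γ in siR_Ctrl and siR_Nostrill cells, and 89 and 184 genes fell. Between the siRNAs 0.218% were called without IFN-γ and 0.429% with it, and 0% in the interaction. With 12 genes, nothing is read from the count. None of the listed lymphocyte and endothelial markers passed the filter on low counts, so these were not tested. The part of cell identity in the levels given here was not tested.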

How the data were processed

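Groups were taken from the labels, and the 5 genes by symbol. The members and the gene lists were chosen with earlier results of these data known. For each gene and library, the deposited tables hold an estimated count, not normalized, made after filtering with SOAPnuke and alignment to GRCm38.p6 with HISAT2 and Bowtie2. The sources used here do not name the counting tool. Between 90.9% and 91.8% of the estimated counts were whole numbers. FPKM values, scaled for gene length and depth, were computed by the authors. TPM values, also deposited, add up to between 999931 and 1000000 in a library. The methods write RPKM for what the columns call FPKM.

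Counts were rounded and fitted with edgeR 4.0.16 (TMM, filterByExpr, quasi-likelihood test, R 4.3.3) on all 4 groups, with Benjamini-Hochberg adjustment over 11900 genes and a threshold of 0.05. The fit was checked only on simulated counts, with the same spread between libraries set for every gene and no length trend. That check does not cover the length trend of these libraries. DESeq2 1.42.0, the tool of the study's methods, and limma 3.58.1 on log2(FPKM + 1), log2(FPKM + 0.1) and log2(TPM + 1) were alternatives, besides other filters, size factors and the removal of a length trend (lowess, span 0.3). All 5 members are named, and the 3 other genes most correlated with each over 12 libraries, except 1 for Mpeg1. Of each pathway list up to 4 genes called with the largest change are named, or else the most abundant. Other list genes and all single markers were named after their values were seen, for lost calls, for the filter or as defining markers. That 1 gene is not reported here, nor are the counts over its list.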

Additional observations from a re-analysis of the deposited data

How the results depend on the processing

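Of 305 recomputed log2 fold changes of the members in the siRNA comparisons and the interaction, 289 kept their direction and their side of the threshold. The 305 include Apol6 and Batf2 without IFN-γ and in the interaction, where 13 basal reads or fewer per group left little room to pass. The tally is therefore not read as stability. With DESeq2 the members called without IFN-γ were 1 in place of 0, Apol9b at 0.83 (adjusted p = 0.0349). With the length trend removed they were 1 without IFN-γ, Apol9b at 0.69 among 408 genes called, and 1 with IFN-γ, Batf2 at 0.38 among 1537. Apol6 without IFN-γ, with 13 reads per group, changed sign to -0.00037 with limma on log2(FPKM + 1), with and without the filter, -0.014 on log2(FPKM + 0.1), -0.0062 on log2(TPM + 1) and -0.046 with the length trend removed. Leaving out 1 library, Apol6 ranged from -0.44 to 0.79 without IFN-γ and from -0.68 to 0.55 in the interaction. The interaction of Batf2 became 0.24 with limma on log2(FPKM + 1), with and without the filter, and 0.32 on log2(TPM + 1), and with 4 and 8 basal reads neither its sign nor its stability is informative. The cause was not tested. The alternative on TPM and that with TMM library sizes for the ratios were chosen after seeing the data.

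The numbers of genes called in the siRNA comparisons depended on the setting. Without IFN-γ, 26 genes became 219 with DESeq2, 408 with the length trend removed, 8 on TPM, 17 with limma on log2(FPKM + 1) of all genes, 0 with only the groups compared, and 0 to 37 leaving out 1 library. With IFN-γ, 51 became 516, 1537, 71, 118 and 0 in the same order, 135 and 114 with limma on filtered FPKM, 105 at a mean of at least 5 CPM, 30 without the filter, and 0 to 72 leaving out 1 library. With IFN-γ against without, 649 genes in siR_Ctrl cells became 1324 with the length trend removed, 341 with only the groups compared and 309 on TPM. In siR_Nostrill cells 807 became 2257, 1997 and 585, 1236 with DESeq2, and 491 to 1138 leaving out 1 library.

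Replicate numbers did not pair the samples, as the deviations of same-numbered libraries correlated from -0.495 to 0.725 and 8 of 18 pairs exceeded 0.1. With the replicate block, 18 genes were called without IFN-γ, 32 with IFN-γ and 0 in the interaction, and 0 members in each. Depth limits the basal values of Apol6, Batf2 and Mpeg1, which rest on 1 to 13 reads per group.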
